A study of Mus musculus with 8 samples.

Results

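The 8 transcription factors that direct the nephron lineage and are described here, Pax2, Pax8, Lhx1, Emx2, Wt1, Gata3, Tfap2a and Tfap2b, were examined by RNA sequencing in a cultured mouse kidney line. They were taken by symbol from the deposited table, where each matched 1 row, giving 8 members among 22274 genes. The line is labelled RFB and its cell type is given as fibroblast. All 8 libraries came from cells given the cytokine TGF-β, an inducer of matrix genes, and they differ in the adenovirus used, labelled ad-GFP in 4 libraries and ad-CRE in 4. GFP is a fluorescent protein and Cre cuts out DNA flanked by a pair of loxP sites. The labels used here name no allele for Cre to act on, no genetic background and no time after infection, and TGF-β was applied in both groups, so its own effect cannot be seen. Separate cultures are not stated for the replicates, so p-values here speak only to library-to-library spread, which could be purely technical.

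The kidney forms from intermediate mesoderm. Pax2 and Pax8, which are close relatives with overlapping duties, specify this lineage together with Lhx1, and Gata3 acts in the nephric duct that they set up. Emx2 is needed by the ureteric bud, which grows from the duct, and Wt1 by the mesenchyme around it and later by podocytes, the filtering cells of the glomerulus. Tfap2a and Tfap2b encode AP-2 factors that act in the distal nephron.

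The libraries held 15998257 to 22297598 counts each. Suv39h1, the histone methyltransferase gene named in the series title, was at 37.2 to 44.1 CPM (counts divided by the TMM-scaled total of their library) in ad-GFP and 31.6 to 33.4 CPM in ad-CRE. Smarca4, which encodes the chromatin remodelling ATPase BRG1, went from between 276 and 299.6 CPM to between 29.9 and 37.3 CPM in the same libraries, an 8.39-fold lower mean. The ad-CRE libraries are therefore described by their label and not as a loss of one named gene. Beside the fibroblast label, fibroblast collagens were expressed in both groups but epithelial keratins were more abundant, with values given with the marker lists.

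All 8 factors were detected in every library, and all 8 passed the filter on low counts. Between groups 4 rose in ad-CRE (Tfap2b, Lhx1, Emx2 and Pax8), 3 fell (Gata3, Wt1 and Tfap2a) and Pax2 did not pass (a threshold of 0.05 on the Benjamini-Hochberg adjusted p of the edgeR quasi-likelihood test). Of all 13702 genes tested 73.1% passed, 36.8% upwards and 36.3% downwards, and among the 1174 tested genes of annotated transcription factor families 72.8% passed, 34.6% upwards and 38.2% downwards. The 7 of 8 members called therefore lie near the background. In 4 of the 8 the groups did not overlap in CPM, where 66.2% of all genes tested showed no overlap. Their median log2 fold change was 0.10, against 3.87e-05, practically 0, over all genes tested. Only Tfap2b and Gata3 changed by more than 1 log2 unit, a size that 14.3% of all genes reached while passing the threshold. In bulk RNA fewer cells that carry a transcript and less transcript per cell cannot be told apart.

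**Figure D1:**
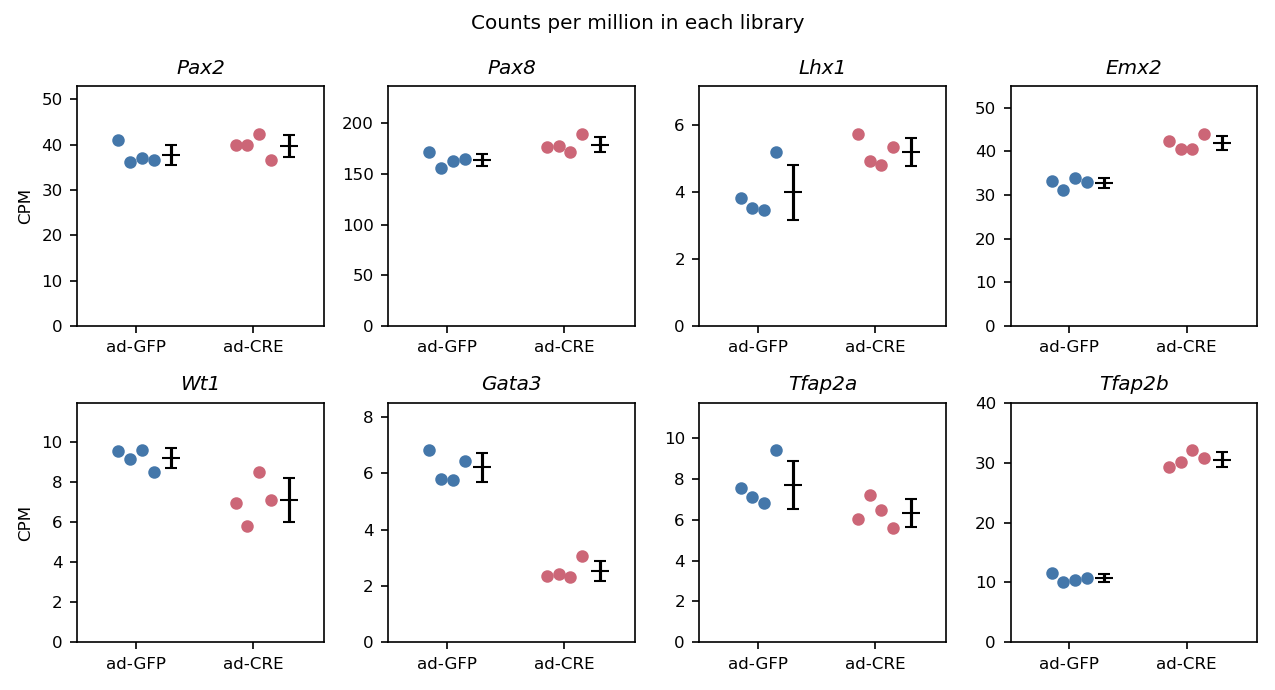
CPM of the 8 factors (vertical axes, each from 0) in the 4 ad-GFP libraries (blue) and the 4 ad-CRE libraries (red); each point is a library and the black bars give the mean ± SD of a group. Tfap2b lies at 10.2 to 11.6 CPM in ad-GFP and 29.2 to 32.0 CPM in ad-CRE, Gata3 is lower in every ad-CRE library, and the groups of Pax2, Lhx1, Wt1 and Tfap2a overlap.

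Levels of different genes were compared on the FPKM scale, the deposited unit that scales counts by gene length. FPKM per count was not constant across libraries: Gata4 had 14 reads in ad-CRE replicates 2 and 3 but 0.48 and 0.19 FPKM. Orders, shares and ratios in FPKM carry that limit. In ad-GFP the order was Pax8 (70.7 ± 2.79 FPKM), Emx2 (12.4 ± 0.449), Pax2 (11.7 ± 0.611), Wt1 (4.49 ± 0.242), Tfap2a (3.17 ± 0.328), Tfap2b (2.69 ± 0.279), Gata3 (1.95 ± 0.158) and Lhx1 (1.32 ± 0.326; mean ± SD, n = 4 each). Neighbours in that order overlapped between libraries at Emx2 with Pax2 and at Tfap2a with Tfap2b. In ad-CRE Pax8 (77.2 ± 2.95 FPKM), Emx2 (15.1 ± 0.455) and Pax2 (11.8 ± 0.700) kept their places without overlap. Tfap2b (6.63 ± 0.161 FPKM) now stood next, above Wt1 (3.33 ± 0.446) and Tfap2a (2.47 ± 0.259), which met at 2.81 FPKM. Gata3 (0.813 ± 0.103 FPKM) had moved below Lhx1 (1.78 ± 0.333), and Lhx1 overlapped Tfap2a.

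Among the 1601 genes that the deposited table assigns to a transcription factor family, Pax8 ranked 32 by mean FPKM in ad-GFP and 26 in ad-CRE. Tfap2b went from rank 834 to rank 540, whereas Gata3 went from 908 to 1019. Pax2 and Emx2 stood at 379 and 359 in ad-GFP and at 367 and 288 in ad-CRE.

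Pax8, on GRCm38 chromosome 2 (24420560 to 24475599, minus strand), was read, in the order of the replicate numbers used throughout, at 171, 156, 163 and 165 CPM in ad-GFP and at 177, 177, 172 and 189.5 CPM in ad-CRE. All ad-CRE libraries lay above all ad-GFP libraries, the nearest by less than 1 CPM. The rise was small, 1.09-fold, or 0.12 ± 0.033 on the log2 scale (fold change ± SE, edgeR adjusted p = 0.00131), and it rests on 12165 and 14315 reads. Pax2, on chromosome 19 (44756045 to 44837871, plus strand), was read at 41.0, 36.2, 37.1 and 36.5 CPM in ad-GFP and at 39.8, 39.9, 42.3 and 36.6 CPM in ad-CRE. The groups overlapped, with 1 ad-CRE library above every ad-GFP library. On the log2 scale its change was 0.07 ± 0.052 (edgeR adjusted p = 0.213), with a 95% interval of −0.03 to 0.18, so a change of the size seen in Pax8 lies within the interval. Without ad-GFP replicate 1, the highest of its group, Pax2 passed at 0.12 (edgeR adjusted p = 0.0478).

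Pax8 outweighed its relative throughout. In FPKM it stood 6.05 ± 0.221 times above Pax2 in ad-GFP and 6.56 ± 0.579 times in ad-CRE (mean ratio ± SD, n = 4). The ranges of the groups overlapped, 5.86 to 6.30 against 5.94 to 7.34. The log2 ratio of their CPM differed by 0.05 between groups (two-sided exact permutation test over the libraries, p = 0.629, adjusted p = 0.629 over 2 pairs of relatives). Without ad-CRE replicate 4 that difference was −0.01. Of the summed FPKM of the 9 Pax genes, Pax8 held 82.6% to 84.0% in ad-GFP and 84.9% to 87.3% in ad-CRE.

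Lhx1, which encodes a LIM homeodomain factor, lies on chromosome 11 (84518284 to 84525535, minus strand) and had the fewest reads of the 8 in ad-GFP, 294 in all against 419 in ad-CRE. It was read at 3.83, 3.52, 3.46 and 5.22 CPM in ad-GFP and at 5.75, 4.94, 4.81 and 5.36 CPM in ad-CRE. The ad-GFP replicate 4 library lay above 2 of the ad-CRE libraries, and the others of its group lay below all of them. Lhx1 rose by 0.39 ± 0.14 on the log2 scale (fold change ± SE, edgeR adjusted p = 0.0137). That call was lost without ad-GFP replicate 2 (0.33, edgeR adjusted p = 0.0525) or without ad-CRE replicate 1 (0.34, edgeR adjusted p = 0.0511), and on the log2(FPKM + 0.1) scale (0.42, limma adjusted p = 0.053).

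Emx2, a homeobox gene on chromosome 19 (59458372 to 59465357, plus strand), was read at 33.2, 31.0, 33.8 and 32.9 CPM in ad-GFP and at 42.3, 40.6, 40.5 and 43.9 CPM in ad-CRE. The groups were well apart, and the change was even across libraries. Emx2 rose 1.28-fold, or 0.35 ± 0.049 on the log2 scale (edgeR adjusted p = 1.48e-07). It supplied at least 99.5% of the summed FPKM of Emx1 and Emx2 in each library. GENCODE M21 places the antisense gene Emx2os across 264 exon bases of Emx2, and the labels do not say whether counting kept the strands apart.

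Wt1, a zinc finger gene on chromosome 2 (105126529 to 105173616, plus strand), was read at 9.56, 9.13, 9.57 and 8.51 CPM in ad-GFP and at 6.97, 5.83, 8.51 and 7.08 CPM in ad-CRE. Of the ad-CRE libraries 3 lay below the whole ad-GFP group, and replicate 3 met its lowest library. Wt1 fell by 0.37 on the log2 scale (SE 0.107, edgeR adjusted p = 0.00272), from 9.19 ± 0.499 to 7.10 ± 1.10 CPM (mean ± SD, n = 4). The podocyte gene Nphs1, which encodes nephrin and was chosen after its values were seen, had 10 reads in all 8 libraries together. It does not stand for its list: of 12 podocyte and parietal markers 8 reached a group mean of 1 FPKM.

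Gata3 showed the largest fall of the 8 factors. It lies on chromosome 2 (9857078 to 9890034, minus strand) and was read at 6.82, 5.82, 5.77 and 6.46 CPM in ad-GFP and at 2.35, 2.45, 2.31 and 3.05 CPM in ad-CRE. The groups were far apart, and the highest ad-CRE library, at 3.05 CPM, lay well below the lowest ad-GFP library, at 5.77 CPM. The mean was 2.45-fold lower in ad-CRE, or −1.30 ± 0.139 on the log2 scale (edgeR adjusted p = 1.2e-09), on 462 and 202 reads. Antisense genes without a row in the table share exon bases with Gata3 (155, Gm13256), Pax8 (367, Gm13415) and Tfap2a (380, 265 and 73, Gm26688, Gm47061 and Gm47067). A gene of the same strand, 9230102O04Rik, shares 77 exon bases with Gata3 in GENCODE M21. On the log2(FPKM + 1) scale, where the added 1 shrinks low genes, the change was −0.70 (limma adjusted p = 3.12e-06).

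The AP-2 genes moved in opposite directions. Tfap2b, on chromosome 1 (19208914 to 19238576, plus strand), was read at 11.6, 10.2, 10.4 and 10.8 CPM in ad-GFP and at 29.2, 30.0, 32.0 and 30.8 CPM in ad-CRE. Each ad-CRE library was far above each ad-GFP library, and the spread within a group was small. Tfap2b rose 2.84-fold, or 1.50 ± 0.064 on the log2 scale (edgeR adjusted p = 4.07e-19), on 799 and 2448 reads. Its size of change exceeded that of 93% of the genes tested, and that of Gata3 exceeded 90.8%.

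Tfap2a, on chromosome 13 (40715302 to 40738376, minus strand), was read at 7.53, 7.09, 6.80 and 9.38 CPM in ad-GFP and at 6.02, 7.18, 6.48 and 5.59 CPM in ad-CRE. The groups overlapped through ad-CRE replicate 2, while the other ad-CRE libraries lay below all of ad-GFP. Tfap2a fell by 0.28 on the log2 scale (SE 0.116, edgeR adjusted p = 0.0329). The call rested on few libraries: it was lost without ad-GFP replicate 4 (−0.18, edgeR adjusted p = 0.181), without ad-CRE replicate 4 (−0.23, edgeR adjusted p = 0.0962) and without ad-CRE replicate 1 (−0.25, edgeR adjusted p = 0.0779). In the authors' deposited table its FDR is 0.0838.

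On the FPKM scale, Tfap2b thus passed from below Tfap2a to above it, while in read counts it was above Tfap2a in every library. The FPKM ratio of Tfap2b to Tfap2a was 0.972, 0.811, 0.792 and 0.827 in the ad-GFP libraries and 2.75, 2.36, 2.75 and 2.94 in the ad-CRE libraries. No library of one group came near the other. The log2 ratio of their CPM was 1.77 higher in ad-CRE (two-sided exact permutation test, p = 0.0286, the smallest that 4 against 4 libraries can give), which did not pass after adjustment over 2 pairs (adjusted p = 0.0571). As the other pair missed the threshold, no result of 4 against 4 libraries could have passed, so the miss says nothing about the change. Tfap2a held 45.3% to 52.1% of the summed FPKM of the 5 AP-2 genes in ad-GFP and 24.6% to 29.0% in ad-CRE, and Tfap2b 40.6% to 44.1% and 68.3% to 72.2%.

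**Figure D2:**
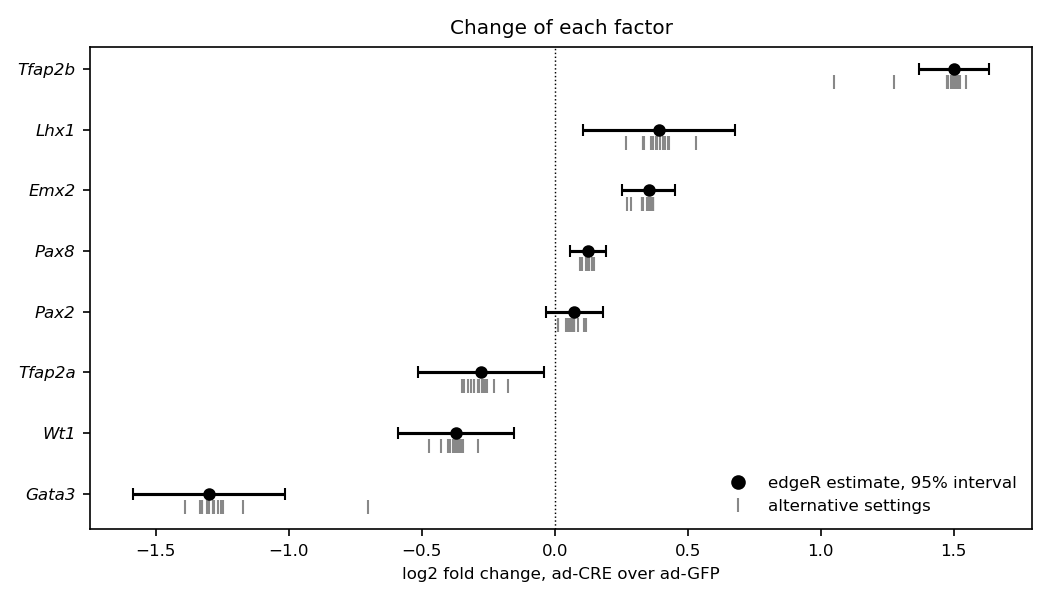
Log2 fold change (ad-CRE over ad-GFP, horizontal axis) of each factor: black points are the edgeR estimates, and grey ticks are the alternative settings. Bars are 95% intervals derived from the test statistic. Tfap2b at 1.50 and Gata3 at −1.30 stand apart from the other 6, and only the interval of Pax2 includes 0.

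The sequences before the start sites of Gata3 and Tfap2b are shown because these were the factors with the largest fall and the largest rise. They cover the 250 bases upstream of the RefSeq start in GRCm38.p6, 5′ to 3′ on the strand of the gene, at chr2:9878601-9878850 (minus strand) and chr1:19211804-19212053 (plus strand). Capitals mark matches to GCCNNNGGC, the palindrome that AP-2 factors bind, which reads the same on both strands.
Gata3: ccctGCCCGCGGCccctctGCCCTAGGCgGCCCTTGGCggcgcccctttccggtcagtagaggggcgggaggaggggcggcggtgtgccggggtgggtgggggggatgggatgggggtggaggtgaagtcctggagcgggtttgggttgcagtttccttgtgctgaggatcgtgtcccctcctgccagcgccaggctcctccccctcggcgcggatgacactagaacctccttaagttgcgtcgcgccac
Tfap2b: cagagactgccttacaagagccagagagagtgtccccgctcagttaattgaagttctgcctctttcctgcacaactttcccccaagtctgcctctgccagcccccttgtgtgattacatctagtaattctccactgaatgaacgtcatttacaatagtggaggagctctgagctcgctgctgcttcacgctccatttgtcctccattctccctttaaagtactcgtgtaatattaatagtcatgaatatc
Gata3 has 3 matches, which do not overlap one another, and Tfap2b has 0. Over 32817 such windows, here called all windows, 13.7% held at least 1 match. They leave out 1 chromosome, which holds none of the members, and count windows of the same position and strand once. The Gata3 window has 19 CG dinucleotides and the Tfap2b window 5, where the median of all windows is 6. Neither window holds the GATA motifs AGATAA (in 9.99% of all windows) or TGATAA (in 7.95%), the homeodomain core TAATTA (in 4.85%) or the motif of WT1 and EGR factors GCGGGGGCG (in 2.57%), on either strand. All 250 bases of the Gata3 window lie in exons annotated to genes other than Gata3, and both start sites lie inside the longer gene models of GENCODE M21. A match is only a match of letters, and binding was not measured here.

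**Figure D3:**
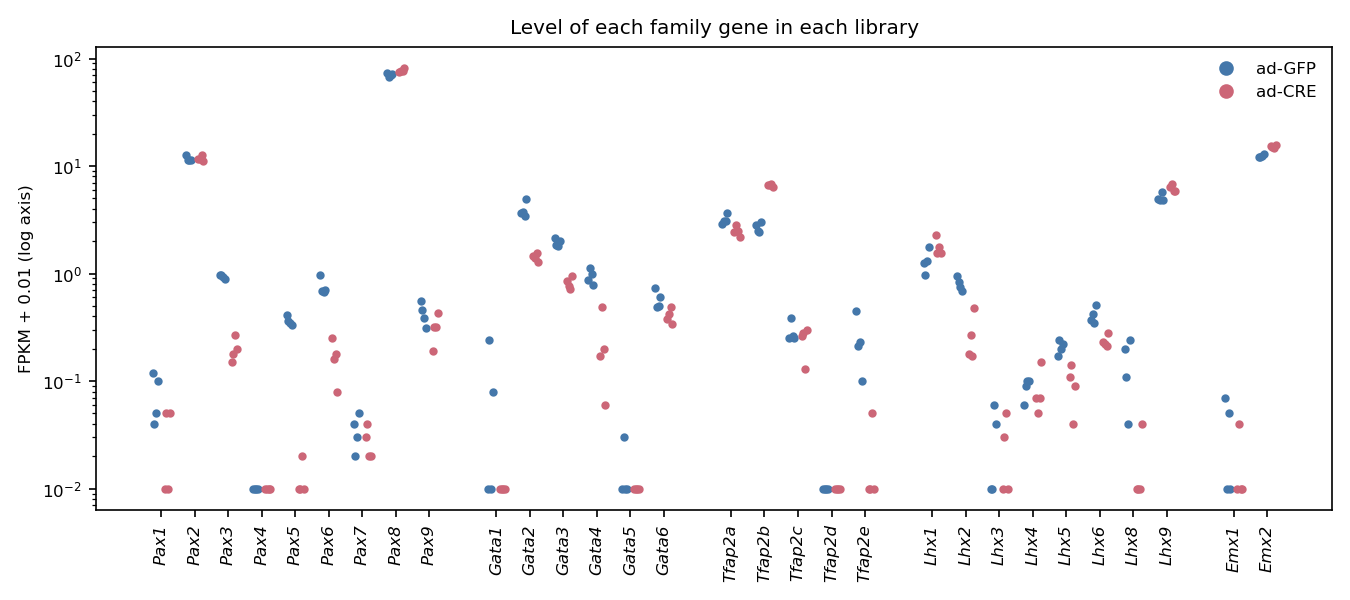
FPKM + 0.01 (vertical log axis) of each Pax, Gata, AP-2, Lhx and Emx gene, with one point per library, ad-GFP in blue and ad-CRE in red; points at 0.01 are listed at 0. Pax8 stands above every other Pax gene, and Tfap2b lies beside Tfap2a in ad-GFP and above it in ad-CRE.

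The other genes of the Pax, Gata, AP-2, Lhx and Emx families were mostly faint. Of these 23 relatives 20 stayed under 1 FPKM in each library, and their summed FPKM was 14.9 to 15.6 in ad-GFP and 9.45 to 10.8 in ad-CRE, against 104 to 112 and 117 to 123 for the 8 members. Of the 11 relatives tested 8 fell and 1 rose, while 2 missed the threshold, and their median log2 fold change was −1.35. Some, such as Pax5, Pax6 and Gata4, had enough reads for the filter mainly in ad-GFP, where they are higher, so these counts and the median describe only the relatives that passed and are not set against the members. With at least 1 read as the filter 12 of 21 fell and 1 rose (median −1.33). With at least 5 CPM in 4 libraries only Gata2 and Lhx9 were left (1 fell and 1 rose), and the log2(FPKM + 1) scale gave a median of −0.43. Gata2, the relative of Gata3 best known from blood stem cells, fell too, from 11.1 ± 0.696 to 4.37 ± 0.689 CPM (mean ± SD, n = 4), a log2 fold change of −1.35 (edgeR adjusted p = 4.93e-12). Gata4, known from heart and gonad, fell as well, by 2.31 on the log2 scale (edgeR adjusted p = 5.78e-09). Gata3 nevertheless held 24.1% to 29.0% of the summed FPKM of the 6 Gata genes in ad-GFP and 24.2% to 36.2% in ad-CRE, ranges that overlap. Pax3, a neural crest and muscle factor, fell by 2.15 on the log2 scale (edgeR adjusted p = 4.48e-10). Pax5, a B cell factor and the closest relative of Pax2 and Pax8, had 209 reads in the ad-GFP libraries together and 1 read in the ad-CRE libraries. Lhx9, a gonad factor, was the one that rose, from 19.6 to 24.3 CPM (log2 fold change 0.31, edgeR adjusted p = 6.08e-05). Pax4 and Tfap2d had 0 reads in each library, which allows up to 0.136 to 0.186 CPM (3 counts, counting error only).

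Beyond these families, 41 of 46 other transcription factors of kidney development were tested. Rises (15) and falls (17) were about as many, 9 missed the threshold, and 78% were called in all. With a filter of at least 5 CPM in 4 libraries the split was 13 rises and 6 falls among 23 tested. The median log2 fold change was −0.06, and its sign turned with a stricter filter or without ad-CRE replicate 1 or 3 (0.41, 0.03 and 0.02). Named by smallest p or highest level were Sox9 (26.8 to 71.4 CPM, log2 fold change 1.41), Grhl2 (26.4 to 55.7 CPM, 1.07), Sox4 (203 to 371 CPM, 0.87) and Sox11 (119 to 207 CPM, 0.80), which rose. Sox9 is a progenitor factor of the ureteric tip and injured tubule, and Grhl2 an epithelial factor of the duct. Sall1, a factor of the metanephric mesenchyme that was singled out after its values were seen, fell by 0.54 on the log2 scale (97.4 ± 2.11 to 67.1 ± 1.29 CPM, edgeR adjusted p = 1.99e-14).

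The signals, receptors and partners of the factors split as evenly: 12 of 28 rose and 11 fell, while 5 missed the threshold, and the median was −0.01, with values of −0.04 to 0.03 over the alternative settings. Npnt, the matrix ligand of the bud, rose from 72.2 to 187 CPM (log2 fold change 1.37), and Wnt7b, a Wnt ligand of the duct, from 128 to 296 CPM (1.22). The Notch ligands Dll1 and Jag1 rose by log2 fold changes of 1.96 and 0.64, to 28.6 and 924 CPM. Cdh2, the cadherin of early tubules, rose by 0.31 to 671 CPM. Fgf8 and Agtr2 had 0 reads in each library. The following were singled out after their values were seen. Ret, the receptor of the nephric duct on which Gata3 is known to act, fell from 7.64 ± 0.553 to 1.72 ± 0.396 CPM (log2 fold change −2.14, SE 0.151, edgeR adjusted p = 9.65e-14). Its co-receptor gene Gfra1 fell by 0.98 on the log2 scale (edgeR adjusted p = 3.14e-08). Gdnf, the ligand of that receptor, rose from 10.0 ± 0.576 to 28.4 ± 1.62 CPM (log2 fold change 1.50, edgeR adjusted p = 1.74e-18). Wnt11 and Spry1 of the same list rose too, by 0.99 and 0.78 on the log2 scale (edgeR adjusted p = 0.000455 and 2.76e-16). Of the list of other transcription factors, Etv4 missed the threshold (log2 fold change 0.07, edgeR adjusted p = 0.194). Etv5 of that list fell (log2 fold change −0.15, edgeR adjusted p = 0.00719). Whether the fall of Gata3 had a part in any of these changes was not tested. Paxip1, whose product links Pax2 to a histone methyltransferase, fell by 0.85 on the log2 scale (edgeR adjusted p = 4.07e-16).

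**Figure D4:**
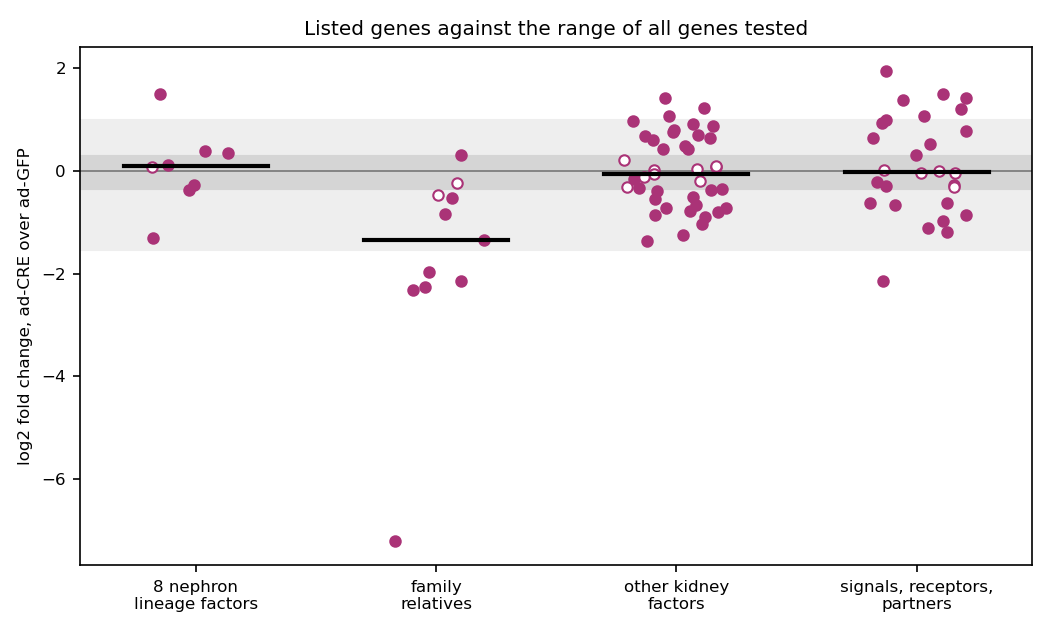
Log2 fold change (ad-CRE over ad-GFP, vertical axis) of the tested genes of 4 lists, one point per gene, open where the threshold was missed, with the list median as a bar; grey bands run from percentile 25 to 75 and from 5 to 95 of all genes tested, and the lowest relative, Pax5, has a fitted value that depends on the prior count. The members lie on both sides of 0, with a median of 0.10.

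The genes whose pattern over the 8 libraries was most like that of a member were taken by the smallest root mean square distance of centred log2 CPM among 10935 candidates. The nearest to Tfap2b were Serinc2 (distance 0.0425 log2 units) and Mn1 (0.0475), and the nearest to Gata3 were Btc (0.0829) and Gem (0.0848). Pax8 was nearest to Btbd3 (0.0231), Emx2 to Kpna1 (0.0193) and Pax2 to Fscn1 (0.0137). Lhx1 was nearest to Rab27a (0.081), Wt1 to Arl16 (0.0766) and Tfap2a to Msrb1 (0.0815). The coefficient of variation between ad-GFP libraries was 20.5% for Lhx1 and 15% for Tfap2a, against 5.43% for Wt1 and 3.82% for Pax8, and between ad-CRE libraries it was 15.5% for Wt1.

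Markers of the labelled cell type and of other kidney cells were read beside the members. Fibroblast markers were present but modest, with a summed level of 55.6 to 64.0 FPKM in ad-GFP and 28.3 to 30.2 FPKM in ad-CRE, and of 10 tested out of 13, 7 fell and 1 rose. The most abundant were the collagen genes Col1a1, which fell from 170 ± 8.36 to 59.7 ± 0.995 CPM, and Col1a2, which fell from 41.5 ± 4.96 to 21.0 ± 2.49 CPM (mean ± SD, n = 4; edgeR adjusted p = 1.78e-25 and 3.82e-13). Other fibroblast genes, chosen after their values were seen, ranged from Thy1 at 22.9 CPM and Pdgfrb at 11.9 CPM in ad-GFP to Lum and Dpt, with 1 read each in the 8 libraries together. Epithelial markers stood at 1200 to 1344 FPKM in ad-GFP and 2763 to 2885 FPKM in ad-CRE, and 12 of 13 rose, among them Krt8 (745 to 1983 CPM). Both kinds of marker were thus present, and the cells are called by their line name. The members moved beside these lists, and the part of the lists in the members' changes was not tested.

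Most tubule and collecting duct markers were sparse. Over all genes tested 36.8% rose and 36.3% fell. Distal tubule and loop markers summed to 5.17 to 6.02 FPKM in ad-GFP and 7.57 to 8.94 FPKM in ad-CRE, with 4 of 6 tested rising and 2 falling. Their median log2 fold change was 0.91. With at least 1 read as the filter 4 of 12 rose and 3 fell, and the median was −1.62. The counts thus describe only the markers that passed the filter. Proximal tubule markers summed to 17.3 to 18.9 and 13.1 to 16.4 FPKM (1 of 4 tested rose, 3 fell), with Slc22a8 at 0. Collecting duct markers summed to 3.22 to 3.94 and 4.05 to 5.58 FPKM, with the water channel gene Aqp2 at 0. Podocyte and parietal markers summed to 108 to 119 and 203 to 216 FPKM (4 of 9 tested rose, 4 fell), mostly Cldn1 and Synpo. Urothelial markers, which Gata3 often accompanies, summed to 19.3 to 20.7 and 14.5 to 16.7 FPKM (of 4 tested 1 rose and 1 fell), with Upk3a at 0. The gene that rose, Upk3b, is counted in the mesothelial list as well. Mesothelial markers, which often go with Wt1, summed to 110 to 125 and 126 to 129 FPKM (of 5 tested 2 rose and 1 fell). Most of that sum was Krt19, also an epithelial marker, at 92.3 to 108 and 101 to 105 FPKM, and 5 of the 8 stayed under 1 FPKM in each library. Neural crest markers, which can go with Tfap2a and Tfap2b, summed to 15.6 to 16.5 and 20.3 to 21.4 FPKM (of 5 tested 3 rose and 2 fell), with Dct at 0. The part of these lists in the changes of Gata3, Wt1, Tfap2a and Tfap2b was not tested.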

How the data were processed

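RNA was sequenced from 8 libraries, 4 per group, prepared per the labels with an RNeasy extraction and a SMARTer mRNA kit. The deposited table gives, per the file headers, a count per gene and library, the FPKM, the authors' mean FPKM per group, their log2 fold change and their p-value with an FDR. The aligner, counter and strand setting are not given in the sources used; GRCm38 and mm10 are named in the submitters' processing notes. The deposited log2 fold change equals the ratio of mean FPKM.

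Genes kept by filterByExpr (13702 of 22274) were fitted with the edgeR 4.0.16 quasi-likelihood test on TMM-scaled counts (R 4.3.3), with Benjamini-Hochberg adjustment over all of them and a threshold of 0.05. CPM values are counts over TMM-scaled library totals. Totals of 15998257 to 22297598 counts set the precision: 1 read is 0.0452 to 0.0621 CPM. No pair of replicates agreed within sampling noise. Ratios of relatives (log2 CPM, prior count 2) were compared by exact permutation. Alternatives used DESeq2 1.42.0 and limma 3.58.1, other scalings, filters and units, a replicate term and each library left out. The fit was also run on simulated counts in which few genes changed. In these data 73.1% of genes passed, so that run does not measure the error rate here.

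The members and lists were chosen with earlier results of these data known. Named were the members, of each pathway list the 4 smallest p and the 2 highest mean CPM, of marker lists the 2 highest and those at 0, and the 2 nearest patterns of each member; other names are marked as chosen after their values were seen. Some listed genes that this rule names are not reported here. Gene positions are from GENCODE M21 (GRCm38). RefSeq upstream windows matched 7 of 8 members.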

Additional observations from a re-analysis of the deposited data

How the results depend on the processing

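No member reversed its direction under 17 alternatives, and 128 of 135 member values stayed on the same side of the threshold. The exceptions were Lhx1, lost at 0.42 with log2(FPKM + 0.1) and at 0.33 and 0.34 without ad-GFP replicate 2 or ad-CRE replicate 1, Tfap2a, lost at −0.18, −0.25 and −0.23 without ad-GFP replicate 4, ad-CRE replicate 1 or ad-CRE replicate 4, and Pax2, which passed at 0.12 without ad-GFP replicate 1. With a library left out 3 to 5 members rose and 2 to 3 fell. A filter of at least 5 CPM in 4 libraries removed Lhx1 and left 2 relatives and 19 other kidney transcription factors past the threshold instead of 9 and 32, because fewer genes were tested. Under that filter the median of the other transcription factors turned to 0.41, and it was 0.03 without ad-CRE replicate 1 and 0.02 without ad-CRE replicate 3; the cause was not tested. The median of the relatives was −0.54 under that filter and −0.43 with log2(FPKM + 1). The median of the signals list changed sign between −0.04 and 0.03. Scaling by total counts moved the median of all genes by −0.03. Deviations from the group mean correlated at −0.171 to 0.152 between libraries of the same replicate number. Between libraries of different numbers the range was −0.231 to 0.211. These values cannot decide whether equal numbers share a culture or day. With a replicate block 4 members rose and 3 fell and 9963 genes passed, against 10022. The log2 ratio of Tfap2b to Tfap2a differed by 1.77 with 16 sign flips, whose smallest p is 0.125. Depth limits Lhx1 and Gata3 most, at 294 and 202 reads in their lower group.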

Other observations

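Tfap2b rose less on the deposited FPKM scale than in counts: the log2 ratio of group means was 1.30 in FPKM and 1.50 in CPM. For Gata3 these were −1.26 and −1.29, and for Pax8 0.13 and 0.13. Markers of the thick ascending limb, which lies in the nephron stretch where AP-2 factors act, moved in both directions: Umod, the uromodulin gene, had 11 reads in ad-GFP and 123 in ad-CRE, whereas Kcnj1, a potassium channel gene, had 129 and 3, and Slc12a1, the sodium transporter gene of that segment, had 228 and 56. These 3 genes were chosen after their values were seen. Of the 361 genes of the table whose annotated processes name kidney, nephron or ureteric development, 6 are members: Gata3, Lhx1, Pax2, Pax8, Tfap2b and Wt1.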
